A study of Homo sapiens with 4 samples.

Results

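Values are described for 9 genes known from the transition of epithelial cells to a mesenchymal state. They are the transcription factor genes SNAI1, SNAI2, TWIST1, TWIST2, ZEB1 and ZEB2, and the cadherin genes CDH1, CDH2 and CDH11. The members were taken by name, as every transcript of the deposited table whose Ensembl identifier belongs to one of these genes in GENCODE release 29. That gave 57 of the 121 transcripts annotated for them, out of 100809 transcripts in the table, and the values were also summed per gene over 22017 genes. All 9 genes had at least 1 transcript, and 8 of them passed the filter on low values, a mean of at least 10 over the libraries. TWIST2 did not pass and was not tested.

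The RNA came from U87, an established human glioblastoma line of a single origin, so no value here speaks to other lines. All 4 samples received 50 nM of an oligonucleotide by lipofection and were taken after 48 h, so none shows untransfected cells. In 2 libraries the oligonucleotide was the tRF-3009a mimic, which stands for a piece of a transfer RNA that includes its 3′ end. In the 2 control libraries it was ssGL2, one strand of an siRNA designed against luciferase. Each group has a library 1 and a library 2, and the labels do not say what a shared number means, or whether the libraries came from separate cultures, so each p-value measures only the spread between these libraries, which may be technical. Values are normalized estimated reads, given below in the order control 1, control 2, mimic 1, mimic 2.

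In epithelia, E-cadherin, the product of CDH1, holds neighbouring cells together through catenins. SNAIL, TWIST and ZEB proteins are DNA-binding factors best known for repressing CDH1 when cells lose that contact, often while N-cadherin (CDH2) or cadherin-11 (CDH11) is gained. Glioma cells are not epithelial, and they are known for high N-cadherin and little E-cadherin, with the same factors tied to invasion. The microRNAs of the miR-200 family repress ZEB1 and ZEB2 through sites in their 3′ untranslated regions (UTRs).

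Between 28860788 and 33848402 whole reads were recovered per library. The marker genes of U87 and of mesenchymal cells (VIM, NES, CD44, CHI3L1, TNC and SPARC) were all present, with sums of 376757 and 234382 in the controls, against 343394 and 220600 with the mimic. The epithelial markers of a short list were low: 4 of 7 had a row, and their sum was 140 and 390 in the controls, against 99.9 and 386 with the mimic. KRT5, KRT19 and GRHL2 of that list had no row. The longer list of 30 epithelial markers used below summed to 3575 and 4319 in the controls, against 3492 and 4205 with the mimic. Most of that sum was DSG2 (2534 to 3000). Neuronal markers had sums of 1497 to 1644 and endothelial markers of 227 to 543, without rows for RBFOX3, STMN2 and CLDN5. Oligodendrocyte markers summed to 98.9 to 437, and MOG, MAG and SOX10 had no row. Astrocyte markers had sums of 263 to 1062, most of it SLC1A3, while GFAP was between 12.5 and 29.7 and S100B and AQP4 had no row. Immune markers had sums of 7244 to 10232, nearly all CD68, a lysosomal gene that is not limited to immune cells, and AIF1 and CD3E had no row.

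SNAI2, ZEB2, CDH2 and ZEB1 were the abundant members, TWIST1 and CDH11 were intermediate, and CDH1, SNAI1 and TWIST2 were near the bottom of the table. For levels to be compared between genes, each transcript's value was divided by its length in kb before summing. On that per-kb scale SNAI2 had the highest level, 1382 ± 62.8 (mean ± SD over the 4 libraries). ZEB2 followed with 913 ± 179, CDH2 with 512 ± 46.6, ZEB1 with 413 ± 26.9 and TWIST1 with 309 ± 60.4. None of these neighbours overlapped in any library, although the lowest CDH2 level (442) was just above the highest ZEB1 level (437). CDH11 had a per-kb level of 199 ± 63.5, and its range overlapped that of TWIST1. The 3 scarce genes had per-kb levels of 11.1 ± 3.85 (CDH1), 8.88 ± 4.60 (SNAI1) and 3.66 ± 2.12 (TWIST2), and each overlapped its neighbour in this order. In bulk RNA, fewer cells that express a gene and less of its RNA per cell cannot be told apart.

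**Figure D1:**
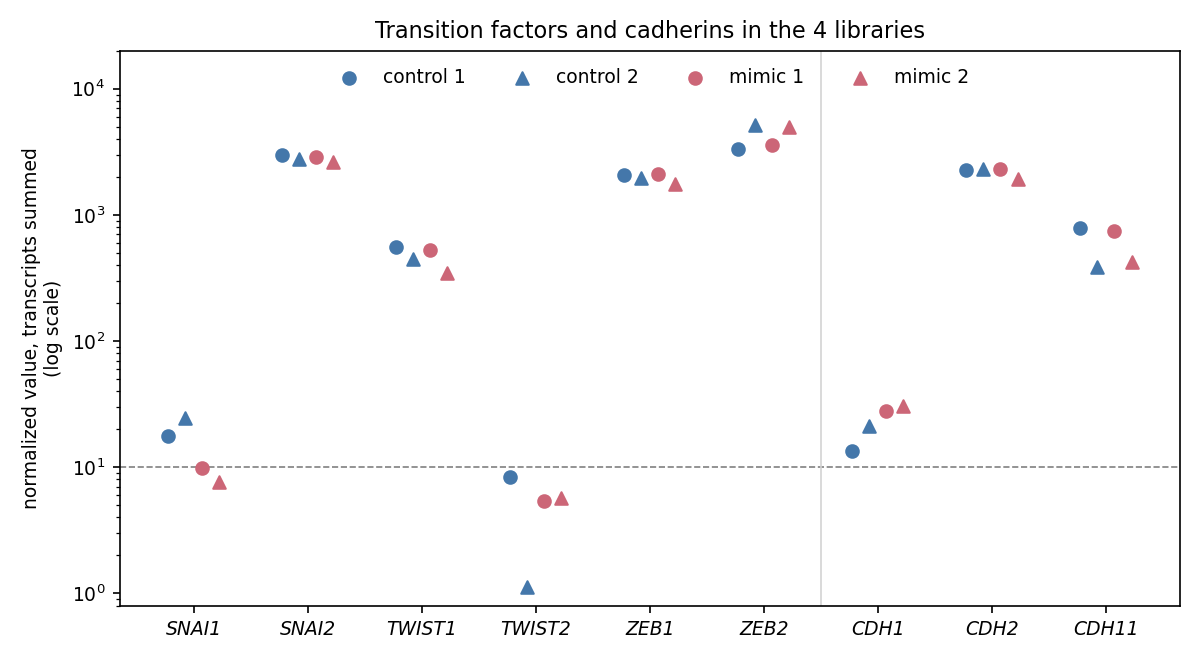
Normalized value of each member, summed over its transcripts, in each of the 4 libraries (log axis). Colour gives the treatment and shape the replicate number, and the dashed line is the filter of 10. ZEB2 and CDH11 separate by number, with ZEB2 higher and CDH11 lower in both libraries numbered 2, while SNAI1 and CDH1 separate by treatment.

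The comparison the study was designed for is the mimic against the control. No member passed it (limma on log2(value + 1), Benjamini-Hochberg adjusted p 1.00 for each of the 8 genes tested). Across all genes 0 of 16523 passed, edgeR and DESeq2 on the recovered reads also called 0, and 26 genes (0.157%) had an unadjusted p under 0.05, none of them a member. These fits had no term for replicate number. Differences between numbers therefore counted toward their spread, and toward the treatment SEs given below. The absence of calls does not show that the groups were equal. With replicate number as a term in limma, 117 genes were called, none a member, though the labels do not say that the numbers pair the libraries. The values of the control and mimic groups did not overlap at SNAI1, lower with the mimic, or at CDH1, higher with the mimic, which is 2 of 8. Over all genes tested 12.4% had groups that did not overlap, 6.21% lower and 6.19% higher. With 2 libraries against 2, an exact two-sided permutation test of one gene cannot go below p = 0.333.

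The second comparison set the libraries numbered 2 against those numbered 1, whatever their treatment. Here 50.2% of all genes passed, 26.0% higher and 24.2% lower in number 2, so a call by number is common in these libraries. Of the 8 members tested 3 passed: ZEB2 rose, and CDH11 and TWIST1 fell. Values of the numbers did not overlap at 5 members (SNAI2, TWIST1, ZEB1, ZEB2 and CDH11), against 75.8% of all genes. Neither share of the members exceeded that of all genes. Marker sums of several cell types also moved with the number. In both libraries numbered 2 the sums were lower for U87, astrocyte markers (1062 and 393, then 976 and 263) and endothelial markers (464 and 280, then 543 and 227), and higher for epithelial and oligodendrocyte markers (112 and 425, then 98.9 and 437). Single markers went against their list, with TNC at 0.89, EPCAM at -1.58 and CLDN4 at -0.11 on the log2 scale. The astrocyte sum followed SLC1A3 (-1.90), while the other tested astrocyte markers, ALDH1L1 (3.09) and GFAP (0.16), were higher in number 2. The oligodendrocyte sum was mostly OLIG2 (101 and 411, then 83.6 and 419). The part of these markers in the calls was not tested.

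**Figure D2:**
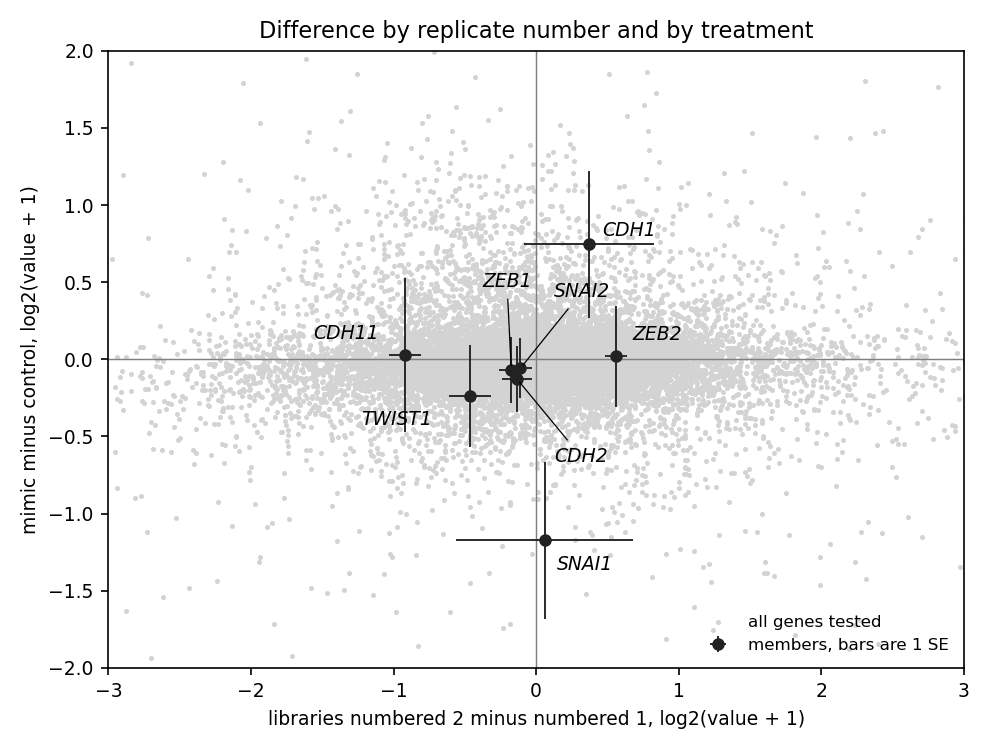
Difference of the libraries numbered 2 from those numbered 1 (x axis) against the difference of mimic from control (y axis), both in log2(value + 1), for the 8 members tested (black, bars of 1 SE in each direction) and all genes tested (grey). Genes beyond the axis limits are not drawn. By number ZEB2 lies at 0.56 and CDH11 at -0.92, beside a median absolute difference of 0.45 over all genes tested. Both lie at 0.02 along the treatment axis. SNAI1 at -1.17 and CDH1 at 0.75 are the members farthest out by treatment.

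SNAI1 (ENSG00000124216, chromosome 20, 49982999 to 49988886, GRCh38) encodes SNAIL, a zinc-finger repressor of CDH1. It was scarce. The controls had 17.7 and 24.7, from 17 and 22 recovered reads, and the mimic libraries 9.90 and 7.63, from 11 and 8 reads. Both mimic libraries were below both controls, and the log2 difference was -1.17 ± 0.51 (SE, n = 2 per group, limma adjusted p = 1.00). Its p was the 68th smallest of 16523 genes in this fit without a number term, where CDH1 was 327th. With replicate number as a term in limma the adjusted p of SNAI1 was 0.794. Within number 1 the log2 difference of mimic from control was -0.78 and within number 2 it was -1.57. Between numbers the difference was 0.06 ± 0.62 (adjusted p = 0.943).

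SNAI2 (ENSG00000019549, chromosome 8, 48917604 to 48921740) encodes SLUG, the relative of SNAIL that marks neural crest and many mesenchymal cells. Its controls had 2974 and 2768 and its mimic libraries 2869 and 2647, so the 4 libraries lay close together. The log2 difference was -0.06 ± 0.19 for the mimic and -0.11 ± 0.08 for the number (adjusted p = 0.278). The main transcript SNAI2-201 held 91.3% to 93.7% of the gene's value. A transcript annotated with a retained intron, SNAI2-204, had 254 and 180 in the controls, against 233 and 161 with the mimic. Both libraries numbered 2 were lower in it than both numbered 1, a log2 difference of -0.51 ± 0.18 that did not pass (adjusted p = 0.176).

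TWIST1 (ENSG00000122691, chromosome 7, 19020991 to 19117672) encodes a basic helix-loop-helix factor that pairs with E proteins such as TCF3. It had 559 and 448 in the controls, against 525 and 343 with the mimic. The second library was the lower one in each group, and TWIST1 fell between numbers by -0.46 ± 0.15 on the log2 scale (limma adjusted p = 0.0258). That call was lost without control 1, without mimic 1 and without mimic 2, with adjusted p from 0.0588 to 0.224. By treatment the difference was -0.24 ± 0.33. Most of the value was in TWIST1-201 (541 and 393, then 510 and 330). A transcript annotated for nonsense-mediated decay, TWIST1-202, had 18.8 and 54.9 in the controls, against 14.5 and 13.3 with the mimic, so control 2 stood apart.

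TWIST2 (ENSG00000233608, chromosome 2, 238848032 to 238910543) encodes the close relative of TWIST1 also called DERMO1. Its only transcript in the table had 8.32 and 1.12 in the controls, against 5.40 and 5.72 with the mimic, from 8, 1, 6 and 6 reads. The groups overlapped, and a difference was not detectable at this depth.

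ZEB1 (ENSG00000148516, chromosome 10, 31318495 to 31529814) encodes a zinc-finger and homeodomain factor that recruits CtBP corepressors to CDH1. It had 2075 and 1968 in the controls, against 2114 and 1752 with the mimic. The log2 difference was -0.07 ± 0.21 by treatment and -0.17 ± 0.09 by number (adjusted p = 0.137). The leading transcript ZEB1-201 was steady at 1618 and 1572, then 1523 and 1485. The transcripts that reach the farthest annotated 3′ end, ZEB1-202 and ZEB1-204, were few and uneven. Their summed value was 195 and 187 in the controls, 318 in mimic 1 and 77.4 in mimic 2, where it was 4.42% of the gene. All these values depend on how reads were split among overlapping transcripts.

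ZEB2 (ENSG00000169554, chromosome 2, 144364364 to 144524583, minus strand) encodes the relative of ZEB1 also called SIP1, which binds SMAD proteins. It had 3353 and 5167 in the controls, against 3551 and 5013 with the mimic. Both libraries numbered 2 were above both numbered 1, and ZEB2 rose between numbers by 0.56 ± 0.08 on the log2 scale (limma adjusted p = 0.000319). This call held with each library left out in turn. The log2 difference of mimic from control was 0.02 ± 0.33, and within the numbers it was 0.08 and -0.04. The antisense genes ZEB1-AS1 (124, 120, 72.9 and 109) and ZEB2-AS1 (2.08, 1.12, 6.30 and 3.82) were far lower than their partners. The library kit keeps strand, per the labels, but whether the read assignment used it is not given in the sources used here.

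The ZEB2 transcripts differed among themselves. The leading one, ZEB2-204, had 1779 and 2434 in the controls, against 1998 and 2434 with the mimic, 47.1% to 56.3% of the gene. ZEB2-227, which runs from the upstream start to the far 3′ end, had 2.08 in control 1 and 3.60 in mimic 1, from 2 and 4 reads, against 626 in control 2 and 728 in mimic 2, from 559 and 765 reads. Its log2 difference between numbers was 7.49 ± 0.35 (limma adjusted p = 0.00696), and it was the only one of 41 member transcripts tested to pass, against 8.32% of 58486 transcripts (4.42% higher in number 2). The size depends on the pseudocount, since the low libraries hold so few reads, and was 5.74 with a pseudocount of 10. The call was lost with any one library left out (adjusted p 0.0874 to 0.149), where 0 transcripts of the whole table were called. The other transcripts with the far 3′ end went both ways. ZEB2-246 was lower in number 2 in each group (289 and 188, then 518 and 104), and ZEB2-241 was higher (194 and 270, then 34.2 and 251). ZEB2-236, which like ZEB2-227 runs from the upstream start to the far 3′ end, was lower (74.8 and 32.5, then 47.6 and 0). The values of all these transcripts depend on how reads were split among overlapping transcripts.

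The transcripts were also summed by shared ends. The classes were formed after the values had been seen, by joining annotated starts less than 1000 bases apart, and they are described without a test. Transcripts starting in the upstream cluster (144520006 to 144520398, 8 transcripts) had a summed value of 454 and 1289 in the controls, against 363 and 1424 with the mimic. Their share of the gene was 13.5% and 24.9% in the controls, against 10.2% and 28.4% with the mimic, higher in number 2 in both groups. Those of the middle cluster (144517551 to 144518424, 6 transcripts, ZEB2-204 among them) made up 65.1% and 58.2% in the controls and 64.1% and 59.3% with the mimic. The downstream pair (144516164 to 144516397) had 483 and 458, then 552 and 356. The log2 ratio of number 2 to number 1 was thus 1.73 for the upstream, 0.42 for the middle and -0.35 for the downstream start. These names order only the clusters with the largest values. ZEB2-219 alone starts farther upstream (144524583) and had a ratio of 0.37. Smaller clusters farther downstream had ratios from -0.56 to 0.36 where one could be formed, so the ratios followed no order along the gene. By 3′ end, the 7 transcripts with the far end had 560 and 1176 in the controls, against 643 and 1089 with the mimic, and the 7 with the nearer end past the stop codon had 2558 and 3745, then 2610 and 3665. Both classes that hold ZEB2-227 depend on the reads assigned to it. Without it the far-end sum was 558 and 549 in the controls and 639 and 361 with the mimic, no longer higher in number 2. The upstream-start sum without it was 452 and 662, then 360 and 697, still higher in number 2 in both groups, with a log2 ratio of 0.74 in place of 1.73. Leaving it out was chosen after the values had been seen.

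**Figure D3:**
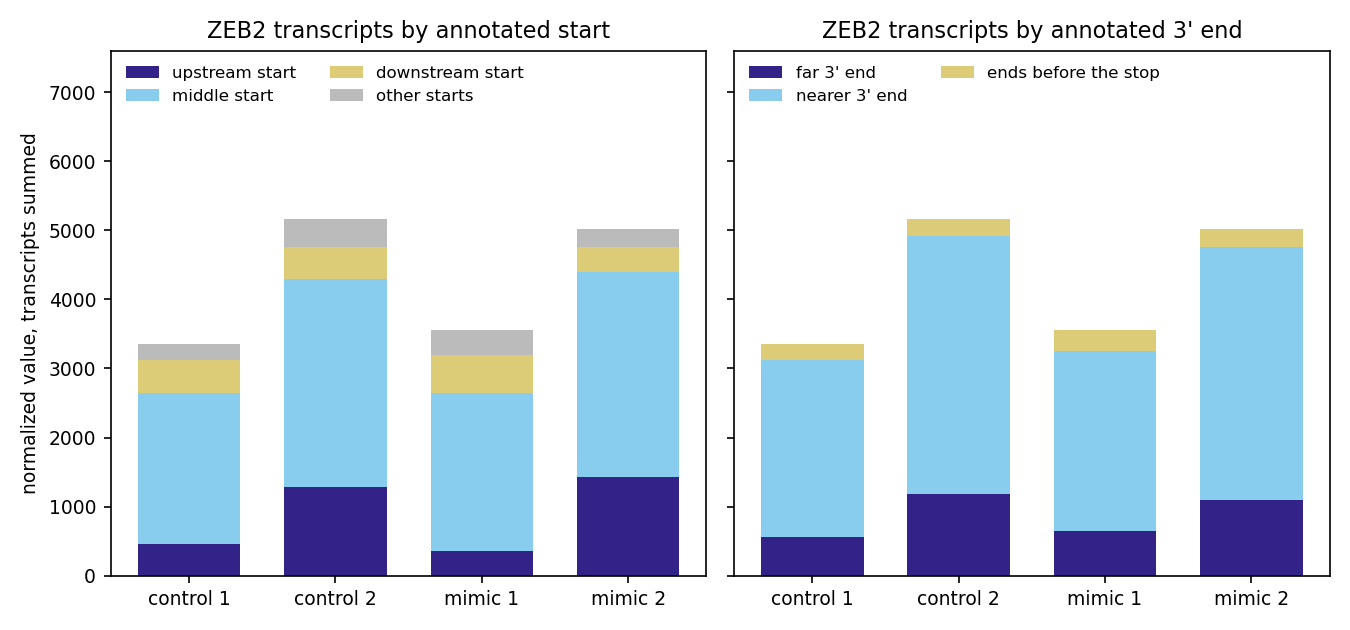
Normalized value of ZEB2 in each library, stacked by annotated start (left) and by annotated 3′ end (right). The bars of the libraries numbered 2 are taller in both groups, and the upstream-start part grows from 454 and 363 in number 1 to 1289 and 1424 in number 2, while the downstream-start part does not. Part of that growth is ZEB2-227 alone, without which the upstream-start part is 452 and 360 in number 1 and 662 and 697 in number 2.

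The 3′ UTRs of ZEB1 and ZEB2 are the textbook targets of the miR-200 family, and the transcripts above differ in how much of that UTR they carry. The 2 seeds of the family, bases 2 to 8 of the mature microRNA, are shown in capitals on 1 member each, with sequences from RefSeq (GRCh38.p14). miR-200b-3p and miR-429 share the first seed and miR-200a-3p the second.
hsa-miR-200c-3p: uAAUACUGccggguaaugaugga
hsa-miR-141-3p: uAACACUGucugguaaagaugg
The matching sites, CAGTATT and CAGTGTT, were searched on the transcript strand in the GENCODE 3′ UTRs. ZEB1-201 held 8 sites in 1938 nt and ZEB2-204 held 8 in 1433 nt. Of the 1591 UTRs within 20% of the length of ZEB1-201, 40.1% held a site and 0.0629% held as many, and for ZEB2-204 the shares were 31.7% and 0.0601% of 1665. In both, only the UTR itself held as many. SNAI2-201 and CDH11-201 held 1 site each, where 24.0% and 65.2% of UTRs within 20% of their length held a site. The leading transcripts of SNAI1, TWIST1 and CDH2 and full-length CDH1-201 held none. Among UTRs near their lengths the shares with a site were 18.5%, 15.4%, 27.1% and 42.3%. Over UTRs of all lengths, 30.6% of 12600 held a site.

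The longer ends add 1 site each, so ZEB1-202 and ZEB2-227 carry 9. The 30-base windows below show a site that ZEB1-201 shares with ZEB1-202, and ZEB2-204 with ZEB2-227, and the site that the longer of each pair adds. Some transcripts end before all of these, such as ZEB2-225 with 166 nt of UTR and ZEB1-219 with 30 nt. The windows are printed with the site in capitals (GRCh38 coordinates, transcript strand).
ZEB1 shared site, chr10:31527621-31527650, plus strand: gttttatcttatCAGTATTatcactcttat
ZEB1 site of the long end, chr10:31529216-31529245, plus strand: tttcatcattatCAGTATTttctttggaaa
ZEB2 shared site, chr2:144388979-144389008, minus strand: actacaatgcatCAGTATTatgattcctct
ZEB2 site of the long end, chr2:144387609-144387638, minus strand: acagctattattCAGTGTTatttataatat
The ninth ZEB2 site therefore lies in the part carried by transcripts with summed values of 560 and 1176, then 643 and 1089. A match is a description of the letters, and mature microRNAs are not measured in poly(A)-selected RNA. MIR200CHG, the host transcript gene of miR-200c and miR-141 on chromosome 12, had no row. A host transcript of miR-200b, miR-200a and miR-429 on chromosome 1 was not looked up.

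RefSeq promoter windows (250 bases before to 50 after a start) were held for 4 of the 9 members, ZEB1, ZEB2, CDH2 and TWIST2, 11 windows in all. CDH1 and the remaining members had no window, so their promoters were not searched. The E-box bound by SNAIL and ZEB proteins, searched as CAGGTG and as CACCTG on the other strand, was in 2 of the 11, both of ZEB1, against 20.6% of 35116 windows of the same length. The ZEB1 window holding the starts of ZEB1-201 and ZEB1-202 had 3. The only ZEB2 window (144520070 to 144520369), within the upstream start cluster, had 0. It holds the starts of ZEB2-215, ZEB2-218, ZEB2-224, ZEB2-229 and ZEB2-236. The starts of ZEB2-227, ZEB2-232 and the leading ZEB2-204 lie outside it.

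CDH1 (ENSG00000039068, chromosome 16, 68737225 to 68835548) encodes E-cadherin. It had 13.5 and 21.3 in the controls, from 13 and 19 reads, and 27.9 and 30.5 in the mimic libraries, from 31 and 32 reads. Both mimic libraries were above both controls, and the log2 difference was 0.75 ± 0.48 (SE, n = 2 per group, limma adjusted p = 1.00). Within the numbers it was 0.99 and 0.50. By number it was 0.37 ± 0.46 (adjusted p = 0.527). The summed epithelial markers were lower with the mimic within each number, at 140 in control 1 and 99.9 in mimic 1, and at 390 in control 2 and 386 in mimic 2. EPCAM had 45.7 and 16.8 in the controls, against 41.4 and 11.4 with the mimic, and CLDN4 had 70.6 and 51.6, then 50.4 and 59.1.

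Few of the CDH1 reads were assigned to the full-length coding transcript. CDH1-201 had 14.6 in control 2, from 13 reads, and 0 in the other 3 libraries, which allows up to 3 reads in each. CDH1-210, annotated for nonsense-mediated decay, had 9.35 and 0 in the controls, against 20.7 and 20.1 with the mimic. The processed transcript CDH1-206 had 4.16 and 6.73, then 7.21 and 10.5. CDH1-210 lacks exon 11 of CDH1-201 (chromosome 16, 68819280 to 68819425, 146 bases, coding), and the 60 bases around that junction are shown. The transcripts also differ at both ends, since CDH1-201 runs from 68737225 to 68835548 and CDH1-210 from 68737312 to 68835030. The last 30 bases of exon 10 are in lower case, and capitals mark the first 30 bases of the exon that follows in each transcript (GENCODE release 29, plus strand).
CDH1-201: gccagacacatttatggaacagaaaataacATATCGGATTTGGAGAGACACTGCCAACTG
CDH1-210: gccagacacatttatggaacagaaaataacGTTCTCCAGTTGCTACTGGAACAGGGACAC
Reads outside the stretch around exon 11 and the differing ends fit both transcripts where they share exons, so the split of 9, 13, 23 and 21 reads between them is uncertain.

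CDH2 (ENSG00000170558, chromosome 18, 27950966 to 28177446, minus strand) encodes N-cadherin, the classical cadherin of neural and mesenchymal cells. It had 2289 and 2314 in the controls, against 2323 and 1909 with the mimic, so 3 libraries were alike and mimic 2 was lower. The log2 difference was -0.13 ± 0.21 by treatment and -0.13 ± 0.10 by number (adjusted p = 0.310), and it did not pass in either. CDH2-201 held 93.2% to 100% of the value. The shorter CDH2-202 had 155 in control 1, 24.8 in mimic 2 and 0 in the other 2 libraries.

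CDH11 (ENSG00000140937, chromosome 16, 64943753 to 65126112, minus strand) encodes cadherin-11, the OB-cadherin of osteoblasts and other mesenchymal cells. It had 783 and 387 in the controls, against 745 and 421 with the mimic. The libraries numbered 2 had lower values in both groups, with means of 764 in number 1 and 404 in number 2. CDH11 fell by 0.92 on the log2 scale (SE 0.11, limma adjusted p = 0.000149), a call that held with each library left out. By treatment the log2 difference was 0.02 ± 0.50, and within the numbers it was -0.07 and 0.12.

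Both main transcripts of CDH11 had lower values in number 2 in each group. CDH11-201 had 363 and 176 in the controls, against 392 and 93.7 with the mimic, and CDH11-212, with an earlier 3′ end, had 294 and 123, then 262 and 148. Their log2 differences of -1.55 ± 0.35 and -1.03 ± 0.20 missed the threshold in limma (adjusted p = 0.0765 and 0.0583) and passed it with DESeq2 on recovered reads (0.000584 and 0.000203). With a filter of a mean of at least 50 both passed in limma as well (0.0408 and 0.0311). Other transcripts did not all share that direction. CDH11-202 had 51.9 and 15.7, then 13.5 and 109, lower in control 2 and higher in mimic 2. CDH11-219 had 33.2 and 40.3, then 38.7 and 42.0, and the scarce CDH11-208 and CDH11-213 were also higher in number 2 in both groups. CDH11-202 shares the far 3′ end with CDH11-201, and their summed value was 415 and 192 in the controls, against 405 and 203 with the mimic.

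Lists of genes that work with the members were read in the same fits. None of their genes passed the comparison of mimic with control, and the list medians lay between -0.16 and 0.01 on the log2 scale, beside -0.01 for all genes. The number comparison gave calls in each list, beside the 50.2% of all genes.

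Among 18 other transition factors tested, 5 rose and 6 fell by number, with a median log2 difference of -0.04. TCF4, which encodes an E protein, fell (1392 and 413, then 1517 and 397; log2 -1.84 ± 0.10, adjusted p = 1.52e-06), and KLF4, a Krüppel-like factor gene, rose (797 and 2961, then 817 and 3059; 1.90 ± 0.08, adjusted p = 4.63e-07). By treatment, the smallest p-values were at FOXC2 (log2 -0.30 ± 0.39) and TCF3 (-0.13 ± 0.20). SNAI3, the third SNAIL gene, had no row.

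Of 20 genes for corepressors and chromatin enzymes that work with SNAIL and ZEB, 6 rose and 11 fell by number, with a median of -0.49. DNMT1, the maintenance DNA methyltransferase gene, fell by 1.35 on the log2 scale, and AJUBA, which encodes a LIM adaptor of SNAIL, rose by 1.69. By treatment EED had -0.28 ± 0.59 and EHMT2 had 0.31 ± 0.60. Of 20 genes for the turnover of these factors, 9 rose and 5 fell, with a median of 0.22. SIAH2, a ubiquitin ligase gene, rose by 1.24 and AURKA, a mitotic kinase gene, fell by 1.44. CSNK1E had -0.15 ± 0.20 and FBXL14 -0.27 ± 0.29 by treatment.

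Other cadherins had 9 genes tested, of which 3 rose and 3 fell by number, with a median of -0.16. CDH7 (225 and 51.6, then 224 and 51.6) fell by 2.10 and CDH18 (234 and 50.4, then 245 and 45.9) fell by 2.29, both atypical or neural cadherin genes. By treatment CDH3 had 0.32 ± 0.44 and CDH6 0.62 ± 0.70. CDH6 was scarce (9.35 and 24.7, then 33.3 and 17.2). Of 14 genes for catenins and other partners, 3 rose and 6 fell, with a median of -0.21. CTNNA1, which encodes the α-catenin that links cadherins to actin, rose by 0.98, and VCL, the vinculin gene, fell by 0.92. JUP had -0.52 ± 0.60 and NECTIN1 -0.39 ± 0.35 by treatment. JUP was near the filter on low values (15.6 and 11.2, then 6.29 and 12.4). Of 10 genes for proteases that process cadherins, 5 rose and 1 fell, with a median of 0.19. ADAM10, the main E- and N-cadherin sheddase gene, fell by 0.62, and ADAM17 rose by 0.74. ADAM15 had -0.27 ± 0.27 and FURIN -0.33 ± 0.21 by treatment.

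Of 19 mesenchymal markers tested, 4 rose and 12 fell by number, with a median of -0.56 beside 0.01 for all genes. SPARC fell by 1.44 and CALD1, the caldesmon gene, fell by 0.87. The smallest p-values by treatment were at ITGA5 (-0.24 ± 0.33) and POSTN (-1.51 ± 1.87). POSTN was scarce (4.16 and 33.6, then 0 and 21.0). Of 15 epithelial markers tested, 3 rose and 2 fell by number, with a median of 0.17, and 11 of the 30 listed had no row. CLDN7, a tight-junction claudin gene, had 10.4 and 121 in the controls, against 4.50 and 143 with the mimic, a log2 difference of 4.07 ± 0.41 (adjusted p = 5.01e-05). ESRP1, an epithelial splicing regulator gene, had 13.5 and 201, then 3.60 and 173 (4.52 ± 0.49, adjusted p = 8.11e-05). Both were at low levels. By treatment 12 of the 15 were lower with the mimic and 3 higher, none passed, and the median was -0.16. The smallest p-values were at PATJ (0.33 ± 0.32) and DSP (0.60 ± 0.52), both among the 3. DSP was near the filter of 10 (9.35 and 6.72, then 11.7 and 13.4). The lean to lower values by treatment was not particular to this list. Mesenchymal markers had 17 lower and 2 higher, proteases 9 and 1, corepressors 16 and 4, and turnover genes 15 and 5. Other factors had 13 and 5, catenins and partners 9 and 5, other cadherins 5 and 4, and antisense and neighbouring genes 2 and 2. In the last list, of antisense and neighbouring genes, 4 were tested: HDAC9, next to TWIST1, rose by 1.04, MIR100HG had -0.19 ± 0.08 and did not pass (adjusted p = 0.0823, or 0.0451 without control 1), and by treatment ZEB1-AS1 had -0.45 ± 0.36 and SNAI3-AS1 0.54 ± 0.58.

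**Figure D4:**
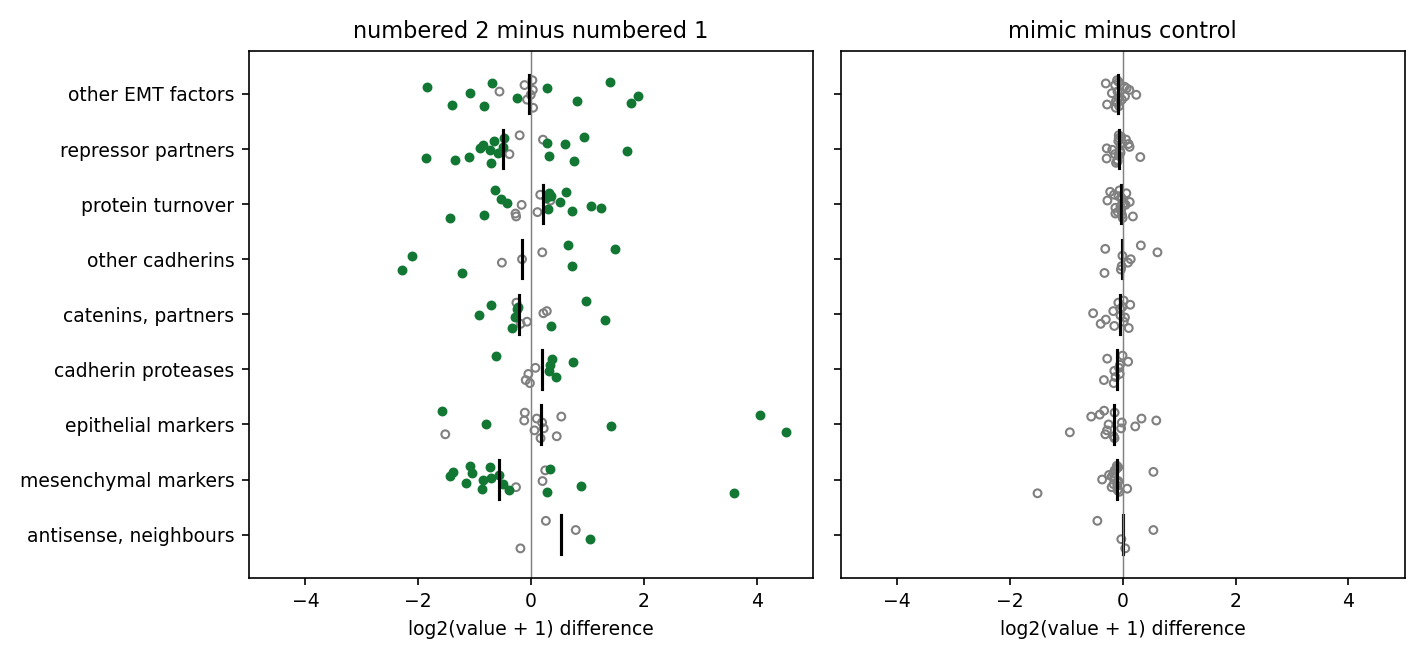
Log2 difference of every tested gene of the 9 related lists, between numbers (left) and between treatments (right). Filled points passed the adjusted p threshold, open points did not, and the vertical bar is the list's median. Points spread widely and many are filled by number, and none is filled by treatment.

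The related genes whose values followed each abundant member most closely were found from the root mean square distance between log2 values centred over the 4 libraries, among 118 genes. ZEB2 was nearest to FBXO11 (distance 0.06; 1753 and 2654, then 2014 and 2744) and SIN3A (0.06). CDH11 was nearest to PAK1 (0.06; 1605 and 892, then 1574 and 894) and VCL (0.07). TWIST1 was nearest to WTIP (0.07) and HDAC1 (0.12). SNAI2 was nearest to TCF3 (0.04) and HMGA2 (0.04), ZEB1 to YBX1 (0.04) and CTNND1 (0.04), and CDH2 to YBX1 (0.07) and TCF3 (0.08). These distances describe 4 libraries in which many genes share the split by number.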

How the data were processed

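Per the labels' protocols, 4 paired-end libraries were made from poly(A)-selected RNA of U87 cells. Tools named in the submitters' processing notes are kallisto and DESeq2, with the build hg38 and no versions. The deposited table holds a signal per transcript, which the authors made as normalized estimated reads. In the low values 95.6% to 99.7% were whole multiples of 1 step per library (tolerance 0.1), and the quotients, called recovered reads, served edgeR and DESeq2. The lowest row summed to 10 reads, so scarcer transcripts are not covered.

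GENCODE release 29 held 90627 (89.9%) of the 100809 transcripts by identifier without version, and 3.26% to 3.57% of the values stayed unmatched. limma with a trend was fitted to log2(value + 1) of all features with a mean of at least 10 (16523 genes, 58486 transcripts), two-sided, with Benjamini-Hochberg adjustment at 0.05 and no block. A fold change on this scale understates the change of low genes. The members, the lists and the rule for named genes were chosen with earlier results of these data known. That rule takes all members, their leading transcripts, in each list the 2 genes with the smallest p for either comparison, and the 2 nearest genes to each member with a mean of at least 50. Alternatives were other pseudocounts, filters, scalings and tools, the replicate number or treatment as a term, and each library left out. R 4.3.3, limma 3.58.1, edgeR 4.0.16, DESeq2 1.42.0, Python 3.11.15, numpy 2.4.6, pandas 2.3.3 and matplotlib 3.10.9 were used.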

Additional observations from a re-analysis of the deposited data

How the results depend on the processing

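Scarce members limit what can be seen: SNAI1, CDH1 and TWIST2 rest on 1 to 32 reads per library. With replicate number as a term (replicate block, one variance pooled over genes), 117 genes were called for the mimic against 0 without, none a member (adjusted p 0.794 at SNAI1, 0.954 at CDH1); the labels do not say that the numbers pair the libraries. DESeq2 called 201 transcripts for the mimic against 0 in limma, and 13528 by number against 4864 in limma. Adding a treatment term to limma gave 1792 transcripts by number in place of 4864. The cause was not tested. Without one library, where fewer samples remain and both groups no longer hold the same numbers, 5160 to 7941 genes were called by number against 8298, and 0 to 0 transcripts. The CDH11 treatment difference reversed with edgeR (-0.0012) and DESeq2 (-0.00046), as did that of CDH11-212 (-0.0085 and -0.014). Apart from these and the transcript calls given beside CDH11, ZEB2-204 (DESeq2 adjusted p 0.00279) and TWIST1-201 (0.00832), other settings kept direction and side of the threshold.

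Leaving out one library also turned these log2 differences. For the treatment, the range was -0.54 to 0.067 for TWIST1, -0.21 to 0.065 for ZEB1, -0.29 to 0.33 for ZEB2, -0.27 to 0.013 for CDH2, -0.48 to 0.53 for CDH11, -0.025 to 0.67 for CDH3, -0.039 to 1.27 for CDH6, -0.99 to 0.42 for EED, -0.32 to 0.94 for EHMT2, -0.67 to 0.068 for FOXC2, -0.58 to 0.097 for ITGA5, -3.74 to 0.72 for POSTN, -0.043 to 1.13 for SNAI3-AS1, -0.48 to 0.15 for TWIST1-201, -0.14 to 0.31 for ZEB2-204, -3.44 to 4.23 for ZEB2-227, -0.24 to 0.064 for CDH2-201, -1.42 to 0.63 for CDH11-201 and -0.58 to 0.67 for CDH11-212. By number it was -0.72 to 0.85 for SNAI1, -0.12 to 0.87 for CDH1, -0.27 to 0.0050 for CDH2, -0.082 to 0.0051 for ZEB1-201, -3.90 to 0.49 for CDH1-210 and -0.24 to 0.055 for CDH2-201. None of these values passed the test with all 4 libraries.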
